A study of Mus musculus with 20 samples.

Results

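Cd3d, Cd3e, Cd3g and Cd247 (the CD3 and zeta chains of the T cell receptor complex), Cd4 (the co-receptor), Lck, Zap70 and Lat (the first kinases and the scaffold behind the receptor) and Cd5 (an inhibitory surface receptor) are described here in sorted mouse CD4 T cells. These 9 genes were taken by symbol from 22878 gene symbols in the RNA tables, with earlier results of these data known. All 9 passed the filter on low counts in both tissues. The RNA came from 6 groups of sorted cells with 2 libraries each. Both spleen groups were CD4+ CD44high CD25- T cells of naive mice that carried T-bet-ZsGreen-T2A-CreERT2 (ZTCE) together with a Rosa26-loxP-STOP-loxP-tdTomato reporter, on a C57BL/6 background. Cells of both groups were tdTomato+, that is, marked by Cre activity driven from T-bet. They differed in ZsGreen, the reporter of present T-bet expression. ZsGreen+ cells had the reporter when sorted, and ZsGreen- cells had a history of T-bet and were sorted as negative for the reporter. The 4 lymph node groups came from T-bet-Cre mice with the same tdTomato reporter, also C57BL/6, that had been immunized with the AS15 peptide in CFA (complete Freund's adjuvant). Draining lymph nodes were taken on day 16, and AS15 tetramer-binding cells were sorted as Tfh (CXCR5high PD1high) or non-Tfh (CXCR5low PD1low) cells, each split into Tomato+ cells, with a history of T-bet, and Tomato- cells. The labels give neither the age or number of mice, nor whether cells of several mice were pooled, nor how CreERT2, a Cre that needs an estrogen receptor ligand, was switched on in the spleen mice. The p-values below therefore measure the spread between these libraries, which may be technical.

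The T cell receptor has no signalling tail of its own. It relies on the CD3 delta, epsilon and gamma chains and on the zeta chain (Cd247), whose cytoplasmic tyrosine motifs are phosphorylated by LCK, a kinase that the CD4 co-receptor brings to the MHC class II contact. ZAP70 then binds the phosphorylated motifs and phosphorylates LAT, the membrane scaffold on which phospholipase C gamma and RAS activators assemble, and CD5 dampens this pathway and is commonly read as a gauge of receptor signal strength.

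The libraries held between 19580616 and 24174592 reads assigned to genes in the spleen and between 13169783 and 20225404 in the lymph node. Levels are RPKM, read counts scaled to transcript length and library size, so that genes can be compared per length. Replicates were far closer in the spleen, where log2 RPKM of 2 libraries of a group correlated at 0.995 and 0.996 across genes, than in the lymph node, where these correlations were 0.816 to 0.878. The sorts were visible in the genes they rest on. Tbx21, which encodes T-bet, stood at 193 and 214 RPKM in ZsGreen+ and 46.4 and 45.3 RPKM in ZsGreen- spleen cells. The ZsGreen- cells thus held less Tbx21 RNA but were not without it. In the lymph node Tbx21 stood at 53.0 to 183 RPKM in the Tomato+ against 10.4 to 12.9 RPKM in the Tomato- libraries. Il2ra, the gene of CD25, by whose absence the spleen cells were sorted, was at 10.5 and 13.6 RPKM in ZsGreen+ and 3.16 and 2.64 RPKM in ZsGreen- cells. Cxcr5 and Pdcd1 were higher in Tfh than in non-Tfh cells (edgeR, adjusted p = 0.0084 and 0.0038).

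Promoter sequences are shown for 3 of the genes that fell in the spleen comparison described below, Cd5, Cd247 and Lat, and for Cd3e, which did not pass that test. Each is the 250 bases before the gene's start in RefSeq, build GRCm38.p6, printed 5′ to 3′ on the gene's strand. The windows are chr19:10738975-10739224 (minus strand) for Cd5, chr1:165788431-165788680 (plus strand) for Cd247, chr7:126369569-126369818 (minus strand) for Lat and chr9:45009612-45009861 (minus strand) for Cd3e. Capitals mark the letters AGGAAG or their reverse complement CTTCCT, the core letters bound by many ETS factors.
Cd5: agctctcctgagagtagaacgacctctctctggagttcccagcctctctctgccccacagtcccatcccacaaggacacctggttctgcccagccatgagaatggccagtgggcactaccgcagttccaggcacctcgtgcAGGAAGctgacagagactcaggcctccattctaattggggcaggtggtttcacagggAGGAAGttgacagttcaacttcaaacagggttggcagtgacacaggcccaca
Cd247: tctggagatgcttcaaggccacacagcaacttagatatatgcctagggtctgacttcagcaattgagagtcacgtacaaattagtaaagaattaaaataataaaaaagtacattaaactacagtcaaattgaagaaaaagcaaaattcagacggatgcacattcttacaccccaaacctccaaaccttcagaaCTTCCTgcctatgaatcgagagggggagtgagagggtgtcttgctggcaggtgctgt
Lat: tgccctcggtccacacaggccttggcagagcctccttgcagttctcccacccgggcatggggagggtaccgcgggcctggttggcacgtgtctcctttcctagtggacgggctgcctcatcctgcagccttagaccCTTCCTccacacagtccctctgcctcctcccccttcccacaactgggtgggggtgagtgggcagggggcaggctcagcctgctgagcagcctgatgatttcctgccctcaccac
Cd3e: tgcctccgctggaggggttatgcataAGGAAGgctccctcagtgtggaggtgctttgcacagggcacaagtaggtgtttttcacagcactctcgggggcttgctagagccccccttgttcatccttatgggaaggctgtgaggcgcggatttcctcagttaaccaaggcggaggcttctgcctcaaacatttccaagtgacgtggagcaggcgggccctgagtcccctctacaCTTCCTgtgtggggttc
Cd5 and Cd3e each held these letters 2 times, and Cd247 and Lat each held them 1 time. Of the 9 genes, 8 had an entry in the promoter table, with 11 windows in all, and 9 of the 11 windows, from 7 of the 8 genes, held the ETS letters on either strand, against 29.5% of all 32851 windows. The letters TCACAC (T-box) were in 2 of the 11 windows, both of Lck, against 12.3% of all windows. TGTGGT (RUNX) was in 2 of the 11, 1 of Lck and 1 of Zap70, against 14.0%. CAGCTG (E-box) was in 0 of the 11, against 13.0%. In the windows of the 9 genes no motif overlapped another, and a match says only that the letters are there. Cd3d, Cd3e and Cd3g are neighbours on chromosome 9, where Cd3d and Cd3g start 1355 bases apart on opposite strands and Cd3e starts 27825 bases from Cd3d. The labels do not say whether the authors' counting used strand.

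All 9 genes were abundant, from 119 RPKM for Cd5 in a ZsGreen+ library to 970.0 RPKM for Lat in a non-Tfh Tomato+ library. Between 5498 reads (Cd3e) and 50133 reads (Lck) stood behind each value. The order of the mean levels was alike at the top in all 6 groups, with Lat highest, then Lck, then Cd3g. At the bottom stood Cd5 in spleen ZsGreen+ and Tfh Tomato- cells, Zap70 in spleen ZsGreen- cells and Cd247 in the other 3 groups. The 2 libraries of a group differed in these genes by a median of 0.07 (ZsGreen+) and 0.08 (ZsGreen-) on the log2 scale in the spleen, and by 0.17 to 0.35 in the lymph node groups. The same medians over all genes with a mean of at least 5 RPKM were 0.09 and 0.10 in the spleen and 0.43 to 0.52 in the lymph node.

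**Figure D1:**
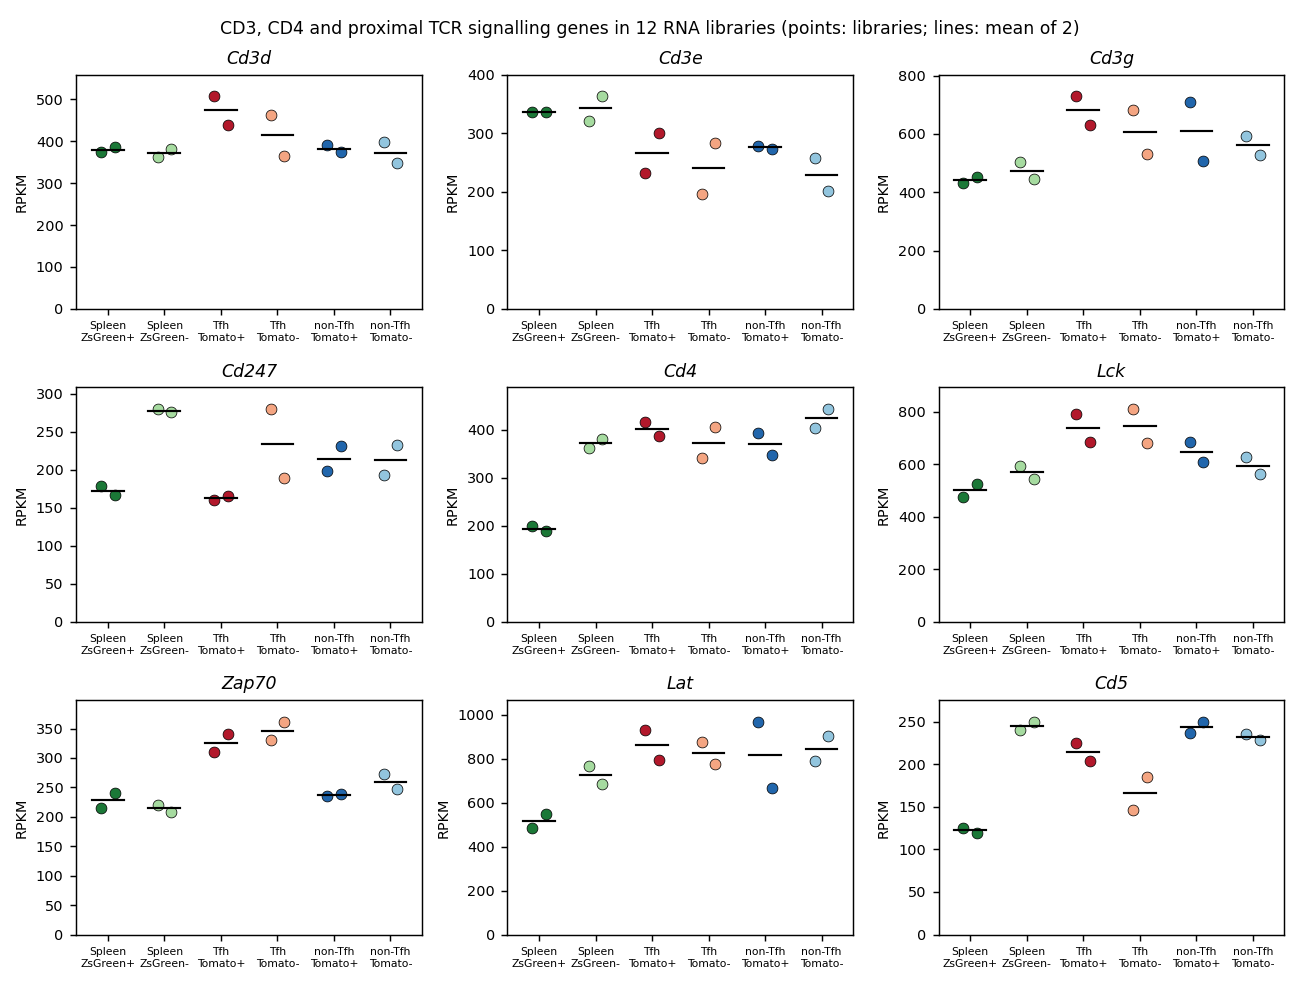
RPKM (y axis, from 0) of each of the 9 genes in the 6 groups (x axis); points are libraries and lines the mean of 2. Cd4, Cd5, Cd247 and Lat lie lower in both ZsGreen+ than in both ZsGreen- spleen libraries, and Zap70 lies higher in all 4 Tfh than in all 4 non-Tfh libraries.

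The first comparison asked how cells with the T-bet reporter differed from cells with a history of T-bet, no reporter and less Tbx21 RNA. In the spleen, the co-receptor, the zeta chain, the LAT scaffold and CD5 had less RNA in ZsGreen+ than in ZsGreen- cells, while the 3 CD3 chains, Lck and Zap70 did not pass the test. Of the 9 genes, 4 fell and 0 rose (edgeR, adjusted p below 0.05). Over all 12918 genes tested, 23.8% passed in either direction, 12.4% with a fall and 11.4% with a rise. The median log2 change was -0.22 over the 9 genes and 0.004 over all genes tested. The libraries of the 2 groups did not overlap in 5 of the 9 genes, the 4 that fell and Lck, against 62.7% of all genes tested. In these bulk libraries, fewer cells that express a gene and less RNA of it per cell cannot be told apart.

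Cd5, the inhibitory receptor, stood at 125 and 119 RPKM in the ZsGreen+ libraries and at 241 and 250.2 RPKM in the ZsGreen- libraries. Both ZsGreen+ libraries were well below both ZsGreen- libraries, the change being 2.06-fold lower, or -1.04 ± 0.08 on the log2 scale (estimate and SE; edgeR, adjusted p = 1.14e-05). Cd4, the co-receptor by which the cells were sorted, stood at 199 and 189 RPKM in ZsGreen+ and at 362 and 381 RPKM in ZsGreen- cells. The groups again lay apart, with Cd4 RNA 1.97-fold lower in ZsGreen+ cells (log2 change -0.98 ± 0.08; edgeR, adjusted p = 2.09e-05).

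Cd247, the zeta chain that carries most of the complex's tyrosine motifs, stood at 178 and 167 RPKM in ZsGreen+ and at 279.8 and 276 RPKM in ZsGreen- cells. It was 1.65-fold lower in ZsGreen+ cells, at -0.73 ± 0.08 on the log2 scale (edgeR, adjusted p = 0.000119), and the groups did not overlap. Lat, the scaffold, stood at 487 and 549 RPKM in ZsGreen+ and at 768 and 685 RPKM in ZsGreen- cells. It was 1.44-fold lower, at -0.53 ± 0.08 on the log2 scale (edgeR, adjusted p = 0.00149), again with no overlap.

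The 3 CD3 chains differed by less than the test could call. Cd3d, the delta chain, had 375 and 385 RPKM in ZsGreen+ and 362 and 382 RPKM in ZsGreen- cells, a log2 change of -0.01 ± 0.08 with a 95% interval of -0.18 to 0.16 (edgeR, adjusted p = 0.953). Cd3e, the epsilon chain, had 336 RPKM in both ZsGreen+ libraries and 322 and 364 RPKM in the ZsGreen- libraries, a log2 change of -0.07 ± 0.09 with an interval of -0.26 to 0.13 (edgeR, adjusted p = 0.621). These values overlapped between the groups. Cd3g, the gamma chain, had 432 and 453 RPKM in ZsGreen+ and 503 and 444 RPKM in ZsGreen- cells, a log2 change of -0.13 ± 0.08 with an interval of -0.31 to 0.04 (edgeR, adjusted p = 0.263). For none of the 3 chains did the interval reach a fall as large as the -0.53 of Lat.

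The 2 kinases did not pass either. Lck, the first kinase of the cascade, had 477 and 525 RPKM in ZsGreen+ and 595 and 543 RPKM in ZsGreen- cells. Its log2 change was -0.22 ± 0.08 with an interval of -0.40 to -0.04, and the groups lay just apart, but it missed the threshold (edgeR, adjusted p = 0.0746). It passed under 3 of 13 alternatives, namely DESeq2 (adjusted p = 0.0436), edgeR without a filter on low counts (0.0228) and edgeR without the second ZsGreen- library (0.0278), and its adjusted p ran from 0.0228 to 0.301 over the 13. Zap70, the kinase that docks on the phosphorylated chains, had 215 and 241 RPKM in ZsGreen+ and 220.3 and 209 RPKM in ZsGreen- cells, a log2 change of 0.05 ± 0.08 with an interval of -0.13 to 0.23 (edgeR, adjusted p = 0.696). The Zap70 values of the groups overlapped.

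**Figure D2:**
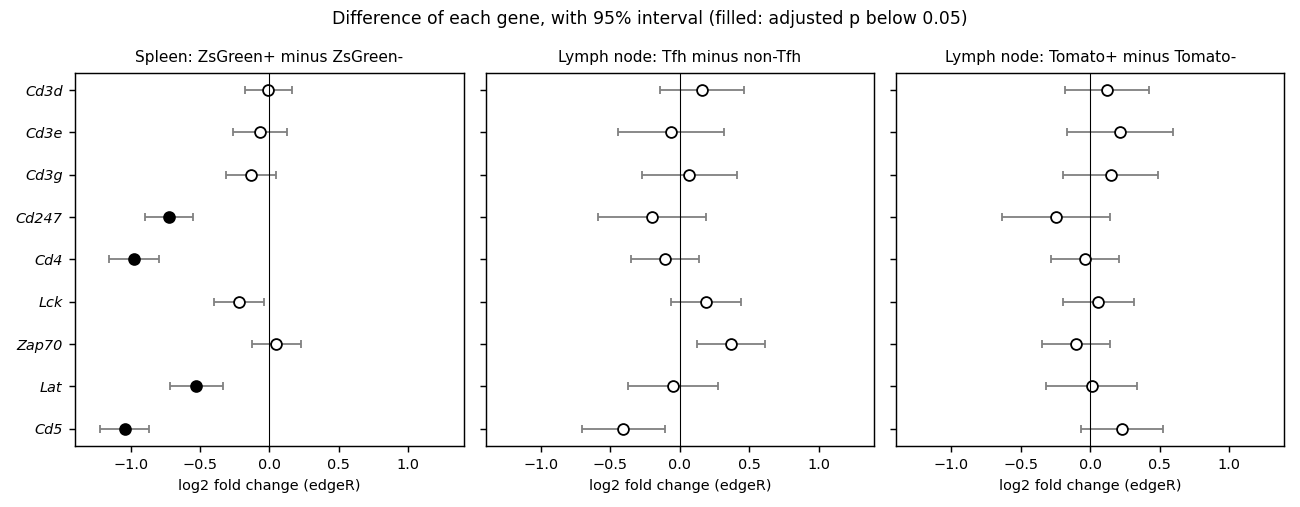
Log2 fold change (x axis) of each of the 9 genes (y axis) with its 95% interval in edgeR, for ZsGreen+ minus ZsGreen- in the spleen and for the Tfh minus non-Tfh and Tomato+ minus Tomato- averages in the lymph node; filled points passed an adjusted p of 0.05. Filled points are Cd247, Cd4, Lat and Cd5 in the spleen, and no point is filled in the lymph node.

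Because some genes fell and others did not, their proportions within a library shifted. The ratio of Cd4 to Cd3e was 0.592 and 0.562 in the ZsGreen+ libraries and 1.12 and 1.05 in the ZsGreen- libraries. The ratio of Cd5 to Cd3e was 0.373 and 0.355 against 0.748 and 0.687. These ratios did not overlap between the groups, so that per Cd3e transcript the ZsGreen+ cells had less Cd4 and less Cd5 RNA. Among the 4 chains of the receptor complex, Cd247 made up 13.5% and 12.4% of the summed RPKM in ZsGreen+ and 19.1% and 18.8% in ZsGreen- cells. The sum itself was 1321 and 1341 RPKM in ZsGreen+ cells and 1467 RPKM in both ZsGreen- libraries. The ratio of Zap70 to Cd5 was 1.72 and 2.02 in ZsGreen+ and 0.915 and 0.834 in ZsGreen- cells.

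Some markers of other cells moved with this comparison, in which 23.8% of all genes passed, 11.4% with a rise and 12.4% with a fall (edgeR). All 8 genes of a list of NK and innate-like T cell markers (Ncr1, Klrb1c, Klrk1, Klrd1, Zbtb16, Eomes, Fcer1g and Tyrobp) rose in ZsGreen+ cells, and their summed level was 320.4 to 384 RPKM against 115 to 117 RPKM. Of 13 macrophage and monocyte markers 4 rose, with sums of 515 to 642 against 430.0 to 451 RPKM. Of 6 neutrophil markers 2 rose, with sums of 947 to 957 against 612 to 838 RPKM. Of 7 dendritic cell markers 2 rose, with sums of 13.0 to 15.3 against 6.81 to 7.53 RPKM. Of 8 B cell markers 1 fell, with sums of 132 to 152 against 153 RPKM in both ZsGreen- libraries. Neither CD8 gene passed, with sums of 17.9 and 18.0 against at most 16.5 RPKM. No marker on these lists was at 0 in a spleen group, and the part that other cells had in the fall of Cd4, Cd5, Cd247 and Lat was not tested.

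The other genes of the pathway were read from 5 lists. Among 9 of 12 listed T cell surface receptors that were in the tables, 5 fell and 0 rose in ZsGreen+ cells, with a median log2 change of -0.29. Trat1, a small adaptor that stabilizes the receptor complex, had 47.0 and 48.7 RPKM in ZsGreen+ and 116 and 96.8 RPKM in ZsGreen- cells, a log2 change of -1.19 ± 0.10 (edgeR, adjusted p = 1.81e-05). Cd6, a relative of CD5, changed by -0.49 ± 0.07 (edgeR, adjusted p = 0.00103) and the adhesion receptor Cd2 by -0.45 ± 0.08 (edgeR, adjusted p = 0.00292). The other 2 were Cd28, the main co-stimulatory receptor, and Ptprc, the CD45 phosphatase that activates LCK. These falls went the same way as those of Cd4 and Cd5.

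Kinases other than Lck and Zap70 mostly went the other way, with 3 of 5 higher, 1 lower and a median of 0.52. Txk, a TEC family kinase of T cells, had 65.3 and 77.9 RPKM in ZsGreen+ and 22.1 and 21.8 RPKM in ZsGreen- cells, a log2 change of 1.67 ± 0.09 (edgeR, adjusted p = 1.88e-06). Tec, of the same family, changed by 0.73 ± 0.13 (edgeR, adjusted p = 0.0031). Syk, the relative of Zap70 in B cells and NK cells, changed by 0.52 ± 0.11 (edgeR, adjusted p = 0.00794), to only 6.23 ± 0.417 RPKM (SD, n = 2) in ZsGreen+ cells, and Csk, the kinase that holds LCK inactive, fell. The rises of Txk, Tec and Syk were opposite in direction to the falls of Cd4, Cd5, Cd247 and Lat.

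Of 14 adaptors and effectors that act with LAT, 4 fell, 1 rose and 9 did not pass, with a median of -0.03. Rhoh, a GTPase that helps ZAP70 reach LAT, changed by -0.91 ± 0.08 (edgeR, adjusted p = 3.58e-05), from 56.4 ± 3.19 RPKM in ZsGreen- to 30.7 ± 0.599 RPKM in ZsGreen+ cells (SD, n = 2). Themis, an adaptor that sets receptor sensitivity in the thymus, changed by -0.54 ± 0.08 (edgeR, adjusted p = 0.00109) and Nck2 by 0.63 ± 0.10 (edgeR, adjusted p = 0.00111). Lcp2, which encodes the SLP-76 adaptor, and its partner Fyb also fell. Of 18 negative regulators, 6 rose and 6 fell, with a median of 0.07. Dgka, a diacylglycerol kinase, fell from 207 ± 16.5 to 100.1 ± 2.48 RPKM (SD, n = 2), at -1.09 ± 0.09 on the log2 scale (edgeR, adjusted p = 1.84e-05). Dok2, an adaptor that recruits RAS inhibitors, rose from 132 ± 8.63 to 258 ± 26.9 RPKM (SD, n = 2), at 0.92 ± 0.09 (edgeR, adjusted p = 4.98e-05), and Ptpn2, a tyrosine phosphatase, rose by 0.61 ± 0.07 (edgeR, adjusted p = 0.000276).

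Of 11 genes downstream of LAT, 4 fell, 0 rose and 7 did not pass, with a median of -0.18. Nfatc1, a calcium-dependent transcription factor, changed by -0.65 ± 0.07 (edgeR, adjusted p = 0.000158), Itpkb, an inositol phosphate kinase, by -0.68 ± 0.10 (edgeR, adjusted p = 0.000855) and Prkcq, protein kinase C theta, by -0.31 ± 0.08 (edgeR, adjusted p = 0.0151). The fourth was Nfatc3. Falls thus outnumbered rises among receptors, LAT partners and downstream genes, the counts were equal among negative regulators, and rises outnumbered falls among the other kinases. Each of these counts stands against the 23.8% of all genes that passed, and the NK and innate-like markers given above moved in the same comparison.

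**Figure D3:**
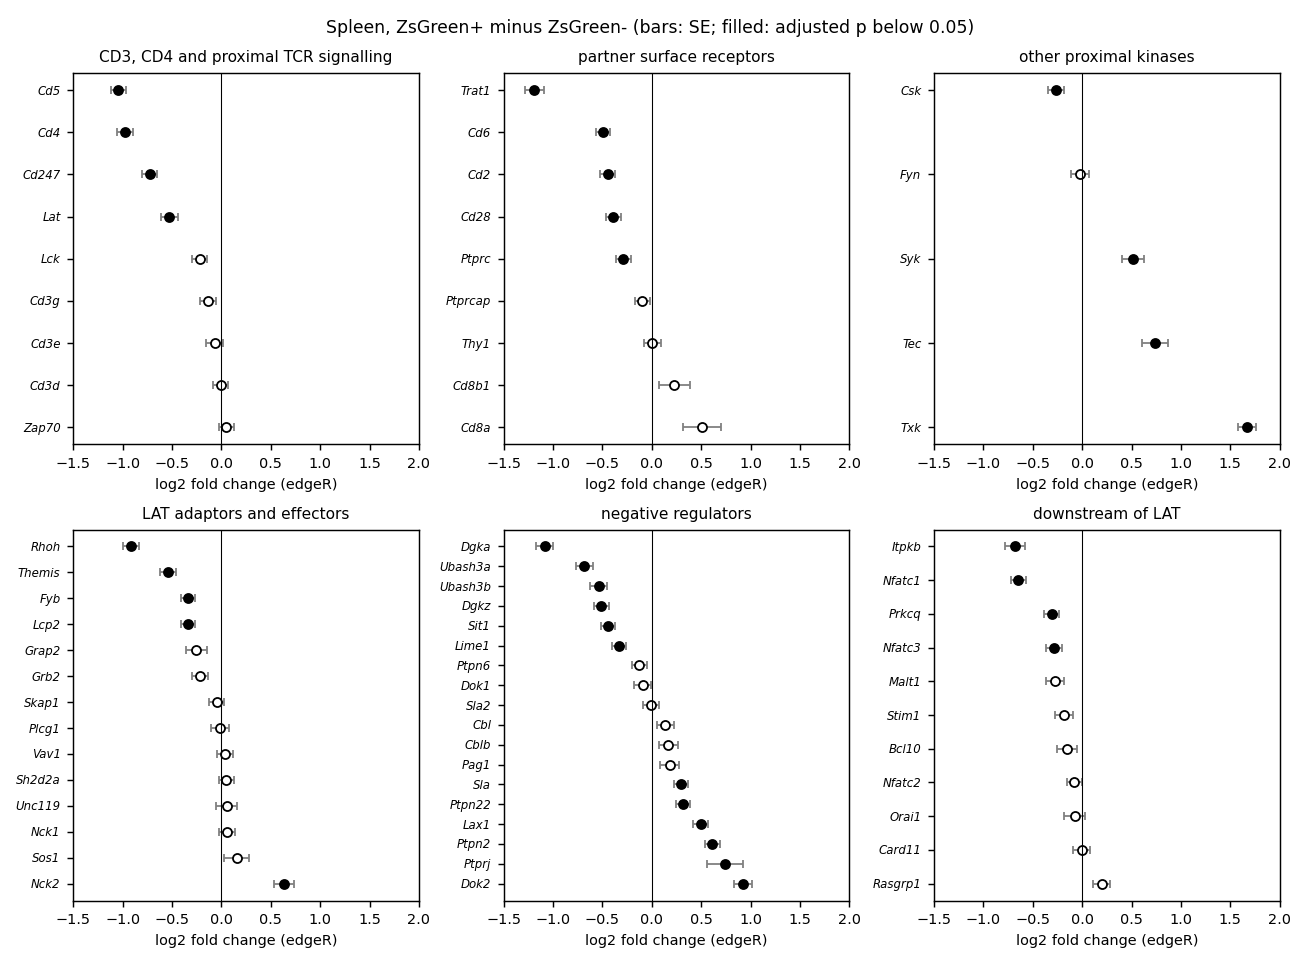
Log2 fold change of ZsGreen+ minus ZsGreen- spleen cells (x axis) with its SE in edgeR, for the 9 genes and 5 lists of other pathway genes (y axis); filled points passed an adjusted p of 0.05. Filled points lie left of 0 for receptors and downstream genes, on both sides for negative regulators, and right of 0 for 3 of 5 other kinases.

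In the lymph node, the libraries of a group differed more, and none of the 9 genes passed the test in any of 7 comparisons. The 2 comparisons that use all 8 libraries asked how Tfh differed from non-Tfh cells and how Tomato+ differed from Tomato- cells. Between Tfh and non-Tfh cells, averaged over Tomato, 0 of 9 genes passed (edgeR), where 1.07% of 11746 genes did. At an unadjusted p below 0.05 there were 2, Zap70 and Cd5, where 1410 of the 11746 genes were. DESeq2 called 1 of the 9, Zap70, and 729 of all genes, and limma called 0 of the 9. The libraries of the 2 sides did not overlap in Zap70 and Cd5 alone, against 6.56% of all genes tested. The median log2 change was -0.05 over the 9 genes.

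Zap70 had 311 and 341 RPKM in Tfh Tomato+, 331 and 362 RPKM in Tfh Tomato-, 235 and 238 RPKM in non-Tfh Tomato+, and 273 and 247 RPKM in non-Tfh Tomato- cells. All 4 Tfh libraries stood above all 4 non-Tfh libraries. The average log2 difference was 0.37 ± 0.11, with an interval of 0.12 to 0.61, and it missed the threshold in edgeR (adjusted p = 0.22), where its adjusted p over 18 alternatives ran from 0.0159, in DESeq2, to 0.55. The difference was 0.37 ± 0.15 among Tomato+ cells (edgeR, adjusted p = 0.596) and 0.37 ± 0.15 among Tomato- cells (edgeR, adjusted p = 0.524).

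Cd5 went the other way. It had 225 and 204 RPKM in Tfh Tomato+, 146 and 186 RPKM in Tfh Tomato-, 237 and 250.1 RPKM in non-Tfh Tomato+, and 235 and 229 RPKM in non-Tfh Tomato- cells. All 4 Tfh libraries stood below all 4 non-Tfh libraries. The average log2 difference was -0.41 ± 0.13 (edgeR, adjusted p = 0.256; range over 18 alternatives 0.0553 to 0.571), with -0.28 ± 0.18 among Tomato+ (edgeR, adjusted p = 0.769) and -0.54 ± 0.18 among Tomato- cells (edgeR, adjusted p = 0.445). The ratio of Zap70 to Cd5 was 1.38 to 2.27 in the 4 Tfh libraries and 0.951 to 1.16 in the 4 non-Tfh libraries. This separation follows from those of the 2 genes and is no further evidence.

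Cd247 was low in one lymph node group. It had 160.5 and 166 RPKM in Tfh Tomato+ cells, below every other lymph node library, and 280.5 and 189 RPKM in Tfh Tomato- cells. In non-Tfh cells it had 198 and 231 RPKM in Tomato+ and 193 and 232 RPKM in Tomato- cells, which overlapped. The log2 difference between Tomato+ and Tomato- cells was -0.54 ± 0.24 in Tfh cells (interval -1.09 to 0.01; edgeR, adjusted p = 0.833) and 0.04 ± 0.24 in non-Tfh cells (edgeR, adjusted p = 0.997). The difference between these differences, the interaction, was -0.58 ± 0.34 (interval -1.36 to 0.20; edgeR, adjusted p = 0.879), so a different response in the 2 populations was not shown. The value in Tfh cells rested on the first Tfh Tomato- library, for without it the difference was -0.23, and without the second it was -0.80.

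Set against the other chains within a library, the ratio of Cd247 to Cd3d was 0.316 and 0.378 in Tfh Tomato+ and 0.605 and 0.518 in Tfh Tomato- cells, and between 0.486 and 0.666 in the 4 non-Tfh libraries. The 2 Tfh Tomato+ libraries had the lowest ratios of the 12, next to 0.433 and 0.476 in spleen ZsGreen+ cells. Cd247 made up 9.84% and 10.8% of the summed RPKM of the 4 chains in Tfh Tomato+ cells and 12.5% to 17.7% in the other lymph node libraries.

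Cd3d had 508 and 439 RPKM in Tfh Tomato+, 463 and 364 in Tfh Tomato-, 391 and 374 in non-Tfh Tomato+ and 397 and 349 in non-Tfh Tomato- cells. Cd3e had 232 and 300.3 RPKM in Tfh Tomato+, 197 and 284 in Tfh Tomato-, 278 and 274 in non-Tfh Tomato+ and 257 and 202 in non-Tfh Tomato- cells. Cd3g had 731 and 632 RPKM in Tfh Tomato+, 681 and 529.9 in Tfh Tomato-, 711 and 508 in non-Tfh Tomato+ and 594 and 529 in non-Tfh Tomato- cells. Over all 8 libraries the 3 chains overlapped, both between the Tfh and non-Tfh sides and between the Tomato+ and Tomato- sides. Between single groups, Cd3d was higher in both Tfh than in both non-Tfh libraries of Tomato+ cells, where 39.2% of all genes did not overlap. Cd3e was higher in both Tomato+ than in both Tomato- libraries of non-Tfh cells, where 37.8% of all genes did not overlap. Neither passed (edgeR, adjusted p = 0.886 for Cd3d and 0.778 for Cd3e). Cd3g overlapped throughout.

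Cd4 had 417 and 387 RPKM in Tfh Tomato+, 340.2 and 405 in Tfh Tomato-, 394 and 347 in non-Tfh Tomato+ and 405 and 444 in non-Tfh Tomato- cells. Lck had 791 and 685 RPKM in Tfh Tomato+, 811 and 681 in Tfh Tomato-, 685 and 608 in non-Tfh Tomato+ and 627 and 561 in non-Tfh Tomato- cells. Lat had 933 and 793 RPKM in Tfh Tomato+, 877 and 776 in Tfh Tomato-, 970.0 and 669 in non-Tfh Tomato+ and 789 and 904 in non-Tfh Tomato- cells. Cd4 was lower in both Tomato+ than in both Tomato- libraries of non-Tfh cells and overlapped in the other 3 comparisons of 2 groups, and Lat overlapped in all 4. Lck, the co-receptor's kinase, stood higher in Tfh than in non-Tfh cells within Tomato+ and within Tomato- cells. Over all 8 libraries the sides just overlapped, the lowest Tfh value being 681 and the highest non-Tfh value 685 RPKM. Of all genes, 37.8% did not overlap in the comparison given for Cd4, and 39.2% (Tomato+) and 37.1% (Tomato-) in those for Lck. None of these differences passed (edgeR, adjusted p = 0.828 for Cd4, 0.993 and 0.642 for Lck).

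Between Tomato+ and Tomato- cells, averaged over Tfh and non-Tfh, 0 of 9 genes passed (edgeR), where 0.656% of all genes did. None of the 9 had an unadjusted p below 0.05, where 1289 of 11746 genes did. DESeq2 and limma called 0 of the 9, where DESeq2 called 640 of all genes. The libraries of the 2 sides overlapped in all 9 genes, against 5.34% of all genes that did not overlap. The log2 differences ran from -0.25 (Cd247) to 0.23 (Cd5), and the 95% intervals reached from -0.64 to 0.59. Differences of the size seen for Cd5 (-1.04) and Cd4 (-0.98) in the spleen lay outside all 9 intervals.

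The remaining comparisons gave 0 of 9 as well (edgeR). Between Tomato+ and Tomato- cells, 0 of 9 passed among Tfh cells, where 0.111% of all genes did, and 0 of 9 among non-Tfh cells, where 0.332% did. In neither was any unadjusted p of the 9 below 0.05, where 685 (Tfh) and 1050 (non-Tfh) of all 11746 genes had one. Among Tfh cells the Tomato+ and Tomato- libraries did not overlap in 2 of the 9 genes, Cd247 and Cd5, against 34.9% of all genes tested. Among non-Tfh cells they did not overlap in 4 (Cd3e and Cd5 higher, Cd4 and Zap70 lower in Tomato+ cells), against 37.8%. Cd5 was 0.36 ± 0.18 higher in Tomato+ Tfh cells on the log2 scale (edgeR, adjusted p = 0.833), 0.10 ± 0.18 higher in Tomato+ non-Tfh cells (edgeR, adjusted p = 0.959), and its interaction was 0.26 ± 0.26 (edgeR, adjusted p = 0.998). Between Tfh and non-Tfh cells, 0 of 9 passed among Tomato+ cells, where 0.0766% of all genes did, and 0 of 9 among Tomato- cells, where 0.179% did. The Tfh and non-Tfh libraries did not overlap in 5 genes among Tomato+ cells (Cd3d, Lck and Zap70 higher, Cd247 and Cd5 lower in Tfh cells), against 39.2% of all genes tested, and in 3 among Tomato- cells (Lck and Zap70 higher, Cd5 lower), against 37.1%. At an unadjusted p below 0.05 these comparisons had 1 (Zap70) and 2 (Zap70 and Cd5) of the 9, against 962 and 1060 of all 11746 genes. For the interaction 0 of 9 genes and 0% of all genes passed in edgeR, 0 of the 9 and 746 of all genes had an unadjusted p below 0.05, limma called 0 genes and DESeq2 called 143, none of them among the 9. DESeq2 and limma called 0 of the 9 in each of these 5 comparisons.

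The other pathway genes gave few calls in the lymph node, where 1.07% of all 11746 genes passed between Tfh and non-Tfh cells on average (edgeR). Between Tfh and non-Tfh cells 1 of 9 receptors fell and 0 rose, Thy1, the Thy-1 surface glycoprotein, at 29.1 to 65.6 against 77.4 to 119 RPKM (log2 difference -1.17 ± 0.17; edgeR, adjusted p = 0.0245). Among the other kinases 1 of 5 rose, Fyn, the second SRC kinase of T cells, at 95.3 to 119 against 50.5 to 67.5 RPKM (0.83 ± 0.15; edgeR, adjusted p = 0.0447). Among negative regulators 1 of 18 rose, Dgkz, a diacylglycerol kinase, at 34.3 to 56.9 against 13.9 to 29.0 RPKM (1.15 ± 0.18; edgeR, adjusted p = 0.0304). Among downstream genes 1 of 11 rose, Nfatc1, at 142 to 167 against 69.2 to 92.4 RPKM (0.86 ± 0.11; edgeR, adjusted p = 0.0136). Over 18 alternatives these 4 passed in 10 (Thy1), 8 (Fyn), 8 (Dgkz) and 15 (Nfatc1), with no change of direction. Of the 14 LAT partners 0 passed in edgeR, with 3 at an unadjusted p below 0.05, where 1410 of all 11746 genes were. DESeq2 called 1 of the 14, Fyb, and 729 of all genes, and limma called 0 of the 14. In the other lists DESeq2 called 3 of 9 receptors (Cd28, Thy1 and Ptprc), Fyn, 2 of 18 negative regulators (Ubash3a and Dgkz) and Nfatc1. There limma called Thy1, Fyn, Dgkz and Nfatc1. In the Tomato average none of the 5 lists had a call in edgeR or limma. At an unadjusted p below 0.05 there were 4 of 9 receptors, 0 of 5 other kinases, 4 of 14 LAT partners, 5 of 18 negative regulators and 2 of 11 downstream genes. Over all genes 1289 of 11746 had such a p. DESeq2 called 2 receptors (Thy1 and Ptprc), 2 LAT partners (Plcg1 and Fyb) and 2 negative regulators (Dok2 and Dgkz) there, and 640 of all genes.

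Some markers of other cells also moved in the lymph node. Of all genes, 0.656% passed in the Tomato average and 1.07% in the Tfh average (edgeR). Summed macrophage and monocyte markers were 982 to 1505 RPKM in the 4 Tomato- and 130.1 to 504 RPKM in the 4 Tomato+ libraries, with 2 of 13 lower in Tomato+ cells on average (edgeR). Summed neutrophil markers were 400.2 and 326 RPKM in the second Tfh Tomato- and second non-Tfh Tomato- libraries and 1.08 to 101 RPKM in the other 6. Summed NK and innate-like markers were 151 to 283 RPKM in Tomato- and 100.1 to 121 RPKM in Tomato+ libraries, with 1 of 8 higher and 2 lower in Tomato+ cells on average (edgeR). The sum did not stand for the whole list. In that average 5 of the 8 had a positive and 3 a negative log2 difference, with a median of 0.42. Between Tfh and non-Tfh cells 0 of these markers passed (edgeR). B cell markers summed to 107 to 148 RPKM, CD8 genes to 15.3 to 42.4 RPKM and dendritic cell markers to 4.52 to 21.4 RPKM. Listed at 0 were Cxcr2, Zbtb16, Flt3, Batf3 and Clec9a in both Tfh Tomato+ libraries, Ncr1 and Clec9a in both Tfh Tomato- libraries, Clec9a in both non-Tfh Tomato+ libraries and Batf3 in both non-Tfh Tomato- libraries. Without the 2 neutrophil-marked libraries, 0 of the 9 genes passed in each of the 7 comparisons, Zap70 differed by 0.31 and Cd5 by -0.50 between Tfh and non-Tfh cells, and the interaction of Cd247 was -1.01. The part of other cells in these values was not tested.

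Spleen and lymph node cells differed in tissue, mouse line, immunization and sort, which cannot be told apart, and were normalized as separate fits, so their levels are only set side by side. Cd4 in ZsGreen+ cells, at 189 and 199 RPKM, lay below all 10 other libraries, which held 340.2 to 444 RPKM. Cd5 in ZsGreen+ cells, at 119 and 125 RPKM, and Lat in ZsGreen+ cells, at 487 and 549 RPKM, also lay below all 10 others, which began at 146 and 669 RPKM. Spleen ZsGreen- cells were within the lymph node range for Cd4, Cd247 and Lat and their Cd5, at 241 and 250.2 RPKM, lay 1 within that range and 1 just above its highest value of 250.1 RPKM. Cd3e was higher in all 4 spleen libraries (322 to 364 RPKM) than in all 8 lymph node libraries (197 to 300.3 RPKM), and Cd3g was lower (432 to 503 against 508 to 731 RPKM). The ratio of Cd3g to Cd3e was accordingly 1.22 to 1.56 in the spleen and 1.85 to 3.46 in the lymph node.

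**Figure D4:**
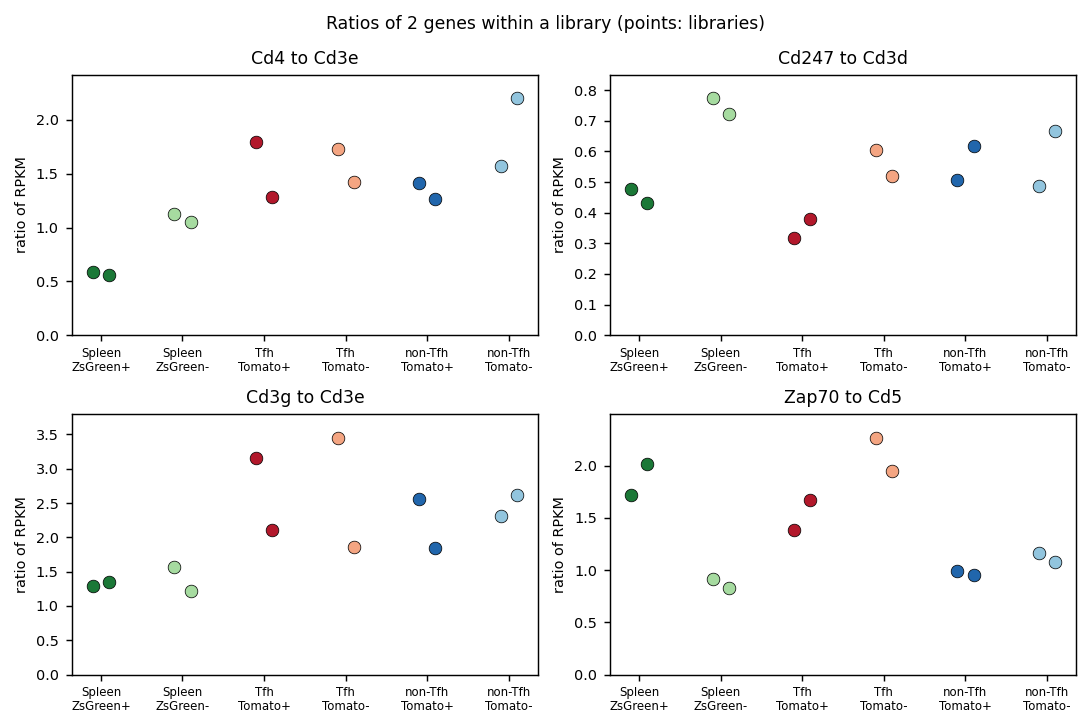
Ratios of the RPKM of 2 genes within a library (y axis, from 0) in the 6 groups (x axis); points are libraries. Cd4 to Cd3e is lowest in the spleen ZsGreen+ libraries (0.592 and 0.562), and Cd247 to Cd3d is lowest in Tfh Tomato+ cells. Cd3g to Cd3e is higher in every lymph node than in every spleen library. Zap70 to Cd5 is higher in every Tfh than in every non-Tfh library, which follows from the separation of each of the 2 genes.

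Cd247 and Lck each have several transcripts in the tables, 5 and 3, which share reads. For Cd247 the transcript with the most reads, 1686 bases long, held 116622 reads over the 12 libraries, and each of the other 4 held 22261 to 23985. The latter fell in ZsGreen+ cells too: the 1359-base transcript had 44.9 and 39.2 RPKM in ZsGreen+ and 66.1 and 64.4 RPKM in ZsGreen- cells. The 3 Lck transcripts were nearly equal, with 418174 to 429406 reads each. Summing reads over transcripts left the spleen count at 4 of 9 genes.

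The genes whose profile was most like the mean profile of the 9 genes, by Pearson's r of log2(RPKM + 1) among 7276 genes over the 12 libraries, were Pkp3 (0.941), Fkbp1a (0.935), Nrp1 (0.917), Synj2 (0.911) and Casp4 (0.909). Of the 9 genes themselves, Cd4 (0.922) and Lat (0.910) followed their mean most closely, and Cd3e ran against it (-0.488). Over the 8 lymph node libraries, among 7004 genes, they were Aurkaip1 (0.985), Zfyve19 (0.964), Lamtor2 (0.963), Psma2 (0.958) and Lamtor3 (0.956), with Cd3g (0.946) closest of the 9 and Cd247 (-0.468) lowest. Each of the 9 genes is part of the mean it was set against and the other genes are not, so their r values are not on a par. The points of these correlations share tissue, group and library, and the values are descriptions only.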

How the data were processed

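Polyadenylated RNA of 12 libraries was sequenced, 2 per group. The deposited tables give a read count and an RPKM value per RefSeq transcript on mm9, per the file headers and the submitters' processing notes, which also name CASAVA 2.18, Bowtie2, SICER 1.1 and edgeR without giving each its role. The RPKM values were made by the authors. Headers of the spleen files name the count and size columns the wrong way round and lymph node files carry no header, so columns were identified from their values. No label states the strand setting or filters. The DNase data were left out.

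Each gene took its transcript with the most reads. Counts were fitted with edgeR 4.0.16 (quasi-likelihood, TMM, filterByExpr; R 4.3.3), with the 4 spleen and the 8 lymph node libraries in separate fits, and p-values were adjusted by Benjamini-Hochberg over all genes tested, with a threshold of 0.05. The SE is the log2 fold change divided by the square root of F. The fits were also run on counts simulated from their own means and dispersions, which cannot show whether the model suits the data. DESeq2 1.42.0, limma 3.58.1, other filters, summed transcripts, a replicate block and leaving out libraries were tried. The genes and lists were chosen with earlier results of these data known. Up to 3 called genes per list, ranked by adjusted p, were named, and Cd28, Ptprc, Csk, Lcp2, Fyb, Nfatc3 and the genes called by DESeq2 were named after their values were seen. A gene of the kinase list is not reported here.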

Additional observations from a re-analysis of the deposited data

How the results depend on the processing

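In the spleen, Cd5, Cd4, Cd247 and Lat passed in all 13 alternatives (highest adjusted p 0.000123, 0.000212, 0.000838 and 0.0133), and 4 to 5 of the 9 genes passed with 1 library left out. In the lymph node 0 of the 9 passed in each comparison and alternative, leaving out 1 library included, except that DESeq2 called 1, Zap70, between Tfh and non-Tfh cells on average. Genes near 0 changed sign, and the cause was not tested. Cd3d in the spleen was 0.0303 with limma at a pseudocount of 1 and 0.0304 at 0.1, and ran from -0.0642 to 0.0472 with 1 library left out, Cd3e from -0.171 to 0.0392 and Zap70 from -0.0177 to 0.116. Cd247 between non-Tfh Tomato+ and Tomato- cells ran from -0.13 to 0.20, with -0.0984 without the first Tomato- and -0.13 without the second Tomato+ library. The interaction of Cd247 ran from -0.85, without the second Tfh Tomato- library, to -0.26, without the first. Prkcq in the spleen lost its call without the second ZsGreen+ library (edgeR, adjusted p = 0.0948). Csk and Nfatc3, which fell in the spleen in edgeR and DESeq2, were not called by limma at a pseudocount of 1.

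Counts over all genes moved more than those over the 9. With a filter of 5 RPKM the spleen had 1981 calls in place of 3074. In the order Tomato in Tfh, Tomato in non-Tfh, Tfh in Tomato+, Tfh in Tomato-, Tfh average, Tomato average and interaction, DESeq2 gave 258, 554, 414, 524, 729, 640 and 143 in place of 13, 39, 9, 21, 126, 77 and 0, limma 29, 71, 29, 43, 133, 105 and 0, and edgeR without both second Tomato- libraries 0, 6, 0, 0, 27, 46 and 0. Fitting only the 4 libraries concerned gave 0, 3, 0 and 0 in the first 4, no filter 25, 65, 49 and 52, a filter of 5 RPKM 18, 58, 40 and 51, and summed transcripts 8, 10, 0 and 9. With 1 library left out, the counts ran from 2 to 8, 5 to 37, 0 to 1, 6 to 12, 46 to 84 and 38 to 94 in the first 6 comparisons, lowest in turn without the second Tfh Tomato-, a second non-Tfh, any but the second Tfh Tomato+, the first Tfh Tomato-, the first Tfh Tomato+ and the second non-Tfh Tomato+ library.

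The deviations of same-numbered libraries from their group means correlated at 0.015 in the spleen and between -0.028 and 0.017 in the lymph node. Such correlations over all genes cannot show whether same-numbered libraries shared mice or a preparation. Summed neutrophil markers, given above, were high in the second library of each Tomato- group. With the replicate number as a block, 4 of the 9 genes passed in the spleen and 0 in each lymph node comparison, and calls over all genes were 3359 in the spleen and 12, 23, 1, 22, 75, 62 and 0 in the lymph node. Having 2 libraries a group limits the precision in both tissues. In comparisons of 2 groups, SEs of the 9 genes were 0.15 to 0.24 in the lymph node and 0.08 to 0.09 in the spleen. The libraries of a group differed more in the lymph node. With the averages and the interaction included, the lymph node SEs ran from 0.11 to 0.34.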
